A study of Mus musculus with 30 samples.

Results

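This account covers 10 regulators of mitochondrial biogenesis in the mouse heart, which were Ppargc1a, Ppargc1b, Pprc1, Esrra, Esrrg, Nrf1, Gabpa, Tfam, Med1 and Perm1. The genes were chosen by name and found by their Ensembl identifiers, and all 10 of the 56914 genes in the tables passed the filter on low counts in both studies. The left ventricles of 30 male C57BL6J mice were profiled by RNA sequencing, 1 library a mouse. In the peptide study, 7 mice received Ab42, the human amyloid beta peptide of 42 residues, and 7 received ScrAb42, a peptide of the same residues in scrambled order. Both were injected into the abdomen daily for 4 weeks, from an age of 12 weeks by the labels (the methods of the study also allow younger mice), at 1 mg per day by the labels and at a dose in micrograms by the methods, and these differences were not resolved here. In the antibody study, 8 mice received 3D6, an antibody that neutralises Ab42, and 8 received a control antibody, all from about 12 weeks of age. By the methods of the study, all 16 mice of the antibody study ate a high-fat diet, whereas the series record describes them as given Ab42, and this too was not resolved. The groups compared shared no mouse.

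PGC-1 proteins are coactivators that do not bind DNA themselves. They dock on nuclear receptors, above all the oestrogen-related receptors, and on the nuclear respiratory factors, and they recruit the Mediator complex to switch on genes of oxidative metabolism. Nuclear respiratory factors in turn drive Tfam, whose protein enters mitochondria, packages mitochondrial DNA and starts its transcription. The adult heart relies on this circuit more than most tissues because it burns fatty acids almost continuously.

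Promoters of these genes were searched for motifs of the proteins in the same circuit, and few held one. Promoter windows of 300 bases, from 250 before to 50 after the start, were listed by RefSeq for 9 of the 10 genes on GRCm38.p6, 13 windows in all. The letters searched on both strands were GCGCANGCG for nuclear respiratory factor 1, CCGGAAG for GABP, AAGGTCA for the oestrogen-related receptors and TGACGTCA for the cAMP response element, and none of these motifs overlapped another in the windows. The nuclear respiratory factor 1 motif was found in the Esrra window, the GABP motif in the windows of Tfam and Gabpa, and the receptor motif in the Perm1 window. Of all 32851 windows, 6.25% held the first motif, 8.86% the second, 4.72% the third and 1.79% the cAMP response element, which no window of the 9 genes held. Among the 13 windows the counts were 1, 2, 1 and 0, too few to set these genes apart from all windows, and the match at Gabpa is for its own protein. A match describes letters and not a bound site. The first 3 sequences below are the parts of the windows outside annotated exons, at Ppargc1a because its reads are followed by start site below, and at Esrra and Perm1 because they hold a motif. The last 2 sequences are 30 bases around the GABP motif. Capitals mark the motif, and each reads 5′ to 3′ on the strand of the gene.
Ppargc1a, upstream start, GRCm38.p6 chr5:51567727-51567975, minus strand: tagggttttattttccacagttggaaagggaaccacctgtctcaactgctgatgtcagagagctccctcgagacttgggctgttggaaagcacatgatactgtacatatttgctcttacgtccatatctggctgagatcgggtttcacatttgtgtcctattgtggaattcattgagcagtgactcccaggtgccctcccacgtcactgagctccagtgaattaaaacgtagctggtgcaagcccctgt
Esrra, GRCm38.p6 chr19:6921814-6922058, minus strand: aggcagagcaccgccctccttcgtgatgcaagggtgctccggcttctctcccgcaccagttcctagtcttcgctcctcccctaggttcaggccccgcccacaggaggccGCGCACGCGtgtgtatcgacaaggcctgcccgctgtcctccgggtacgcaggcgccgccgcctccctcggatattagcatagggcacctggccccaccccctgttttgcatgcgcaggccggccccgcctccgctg
Perm1, GRCm38.p6 chr4:156215677-156215867, plus strand: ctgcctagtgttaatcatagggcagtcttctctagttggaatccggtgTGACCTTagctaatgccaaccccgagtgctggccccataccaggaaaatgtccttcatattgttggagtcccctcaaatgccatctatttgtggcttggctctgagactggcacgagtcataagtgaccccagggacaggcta
Tfam, GRCm38.p6 chr10:71238073-71238102, minus strand: cctgccgcggaCCGGAAGtccgggcttccc
Gabpa, GRCm38.p6 chr16:84835020-84835049, plus strand: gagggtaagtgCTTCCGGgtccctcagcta
In the Esrra window the motif began 141 bases before the start, in Perm1 it lay on the opposite strand from 202 bases before the start, in Tfam it began 47 bases before the start, and in Gabpa it lay on the opposite strand from 93 bases before the start.

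Sequencing depth, as the sum of counts per heart, spanned 4478991 to 6015767 for the peptide study and 6397192 to 8310478 for the antibody study. All 6 cardiomyocyte markers were present in every heart, with summed levels between 39632.9 and 79486.7 CPM (counts scaled to a common library size after TMM normalization). Some hearts stood apart. In the peptide study, Sln, an atrial gene, exceeded 100 CPM in 4 of 7 Ab42 hearts (hearts Abeta42_3451, Abeta42_3455, Abeta42_3457 and Abeta42_3458) and in 1 of 7 ScrAb42 hearts (heart ScrAbeta42_3448), and the summed level of 5 atrial markers ranged from 12.3 to 8387 CPM with Ab42 and from 3.81 to 3652 CPM with ScrAb42. Heart Abeta42_3457 also held Ucp1, the uncoupling protein of brown fat, at 247 CPM, and heart Abeta42_3451 held it at 52.0 CPM, whereas Ucp1 did not exceed 1.35 CPM in the other 5 Ab42 hearts and 0.193 CPM in ScrAb42 hearts. Summed adipocyte markers were highest in the same 2 hearts, at 386 and 122 CPM, and reached 84.1 CPM with ScrAb42. Hearts Abeta42_3457 and ScrAbeta42_3448 had the lowest shares of counts from mitochondrial genes, 12.9% and 13.8%. Summed blood markers were highest in hearts ScrAbeta42_3448 and ScrAbeta42_3449, at 15889 and 10012 CPM, and ran from 554 to 6407 CPM in the other 12. In the antibody study, the 6 hearts of mice numbered 3 to 12 (3 per group) differed from the 10 hearts of mice numbered 15 to 24 (5 per group), with mitochondrial shares of 32.8% to 37.8% against 25.9% to 33.7%. Summed atrial markers were highest in control mouse 15, at 2768 CPM, followed by 3D6 mouse 20 at 666 CPM and 3D6 mouse 7 at 529 CPM, and had group medians of 2.87 CPM with the control antibody and 98.2 CPM with 3D6. The labels do not say what the mouse numbers mark. In these bulk samples, fewer cells of a type and less RNA per cell cannot be told apart.

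Per kilobase of annotated exon, Perm1 was the most abundant of the 10 genes and Nrf1 the least abundant in each of the 4 groups. Perm1, a muscle protein induced by PGC-1 and the oestrogen-related receptors, reached 108 ± 21.6 CPM per kb (mean ± SD, n = 7) in ScrAb42 hearts and 76.2 ± 18.4 (n = 8) in control antibody hearts. Nrf1, which encodes nuclear respiratory factor 1, stood at 1.54 ± 0.196 and 0.923 ± 0.197 CPM per kb in the same groups. In ScrAb42 hearts, Ppargc1a (35.7 ± 26.4 CPM per kb) and Esrra (35.4 ± 6.31) came next and overlapped within their SD. Gabpa (9.90), Tfam (8.25), Esrrg (7.25) and Med1 (6.69 CPM per kb) followed in this order, each overlapping its neighbour. Ppargc1b at 4.55 ± 1.28 and Pprc1 at 3.93 ± 0.446 CPM per kb, the other 2 coactivators of the PGC-1 family, overlapped each other, and Pprc1 did not overlap Nrf1. The order depended on the length used. With the longest transcript in place of all annotated exons, Esrra (62.5 ± 11.1 CPM per kb) stood above Ppargc1a (36.4 ± 27.0) in ScrAb42 hearts. Esrra and Ppargc1a still overlapped within their SD. In the same hearts Gabpa no longer overlapped Tfam, and Pprc1 (4.71) overlapped Nrf1 (3.91). In control antibody hearts Esrra (25.7 ± 2.99 CPM per kb) came after Perm1 and did not overlap Ppargc1a (7.94 ± 2.25), which was next. The studies were processed into separate tables, so levels of the 10 genes were compared only within a study.

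The peptide study asked how raised circulating Ab42 bears on gene expression in the heart. None of the 10 regulators passed the test at an adjusted p under 0.05 (edgeR quasi-likelihood test with Benjamini-Hochberg adjustment over 11985 genes), and no gene of the whole table did (0% called). At an unadjusted p under 0.05, edgeR called 1 of the 10 regulators, Med1, against 780 of 11985 genes (6.51%). DESeq2 likewise had no regulator past the adjusted threshold, with 12 genes called in the whole table, and limma-voom called 0 genes. Estimates were below 0 for 8 of the 10 regulators with a median log2 fold change of -0.15, beside a median of 0.00 over all genes tested. With the mean log2 CPM of the atrial markers as a covariate, the estimates of Ppargc1a, Gabpa and Perm1 were above 0. Ppargc1a, Ppargc1b, Pprc1, Gabpa, Med1 and Perm1 were singled out by the study on these same hearts, so counts over the 10 genes are not independent evidence of their direction.

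**Figure D1:**
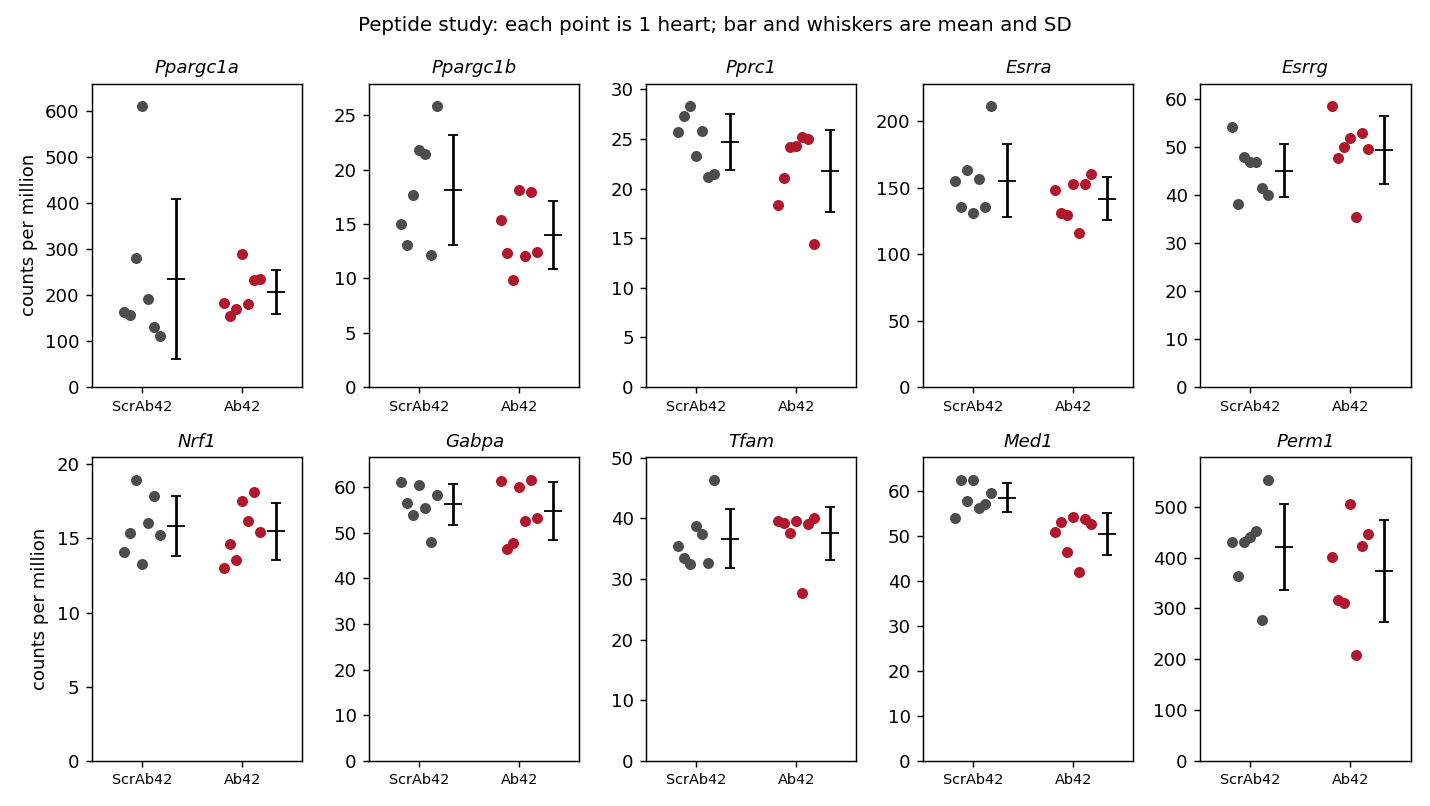
CPM of the 10 regulators in each heart of the peptide study, with the mean and SD of each group. Med1 was below every ScrAb42 heart in 6 of 7 Ab42 hearts, and 1 ScrAb42 heart held Ppargc1a at 611 CPM.

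Among the coactivators, Ppargc1a had a single ScrAb42 heart far above the rest. Ppargc1a encodes PGC-1α, the founding member of the family, which responds to exercise, cold and fasting. Its levels in Ab42 hearts were 155, 170, 181, 183, 234, 235 and 289 CPM, and in ScrAb42 hearts 111, 132, 157, 164, 191, 281 and 611 CPM. The groups overlapped throughout, and the highest value, in heart ScrAbeta42_3445, was more than that of any Ab42 heart. The log2 fold change of Ppargc1a was -0.19 with a standard error (SE) of 0.32 (edgeR, adjusted p = 0.948). Without heart ScrAbeta42_3445 the estimate was 0.26, opposite in sign (unadjusted p = 0.214). In that comparison 6 of 7 Ab42 hearts exceeded the ScrAb42 median.

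Ppargc1b encodes PGC-1β, a close relative with the same docking surface for nuclear receptors. In Ab42 hearts it ranged from 9.90 to 18.1 CPM with a median of 12.5, and in ScrAb42 hearts from 12.2 to 25.9 CPM with a median of 17.6. The values of 2 Ab42 hearts lay below every ScrAb42 heart, and no Ab42 heart lay above them all. Its estimate, -0.37 (SE 0.18, edgeR, unadjusted p = 0.0584, adjusted p = 0.763), was the most negative of the 10 genes. With the mean log2 CPM of the atrial markers as a covariate it was -0.20 (unadjusted p = 0.341). Pprc1, the member of the family that responds to serum and growth signals, ranged from 14.4 to 25.2 CPM with Ab42 and from 21.2 to 28.3 CPM with ScrAb42. Its log2 fold change was -0.18 (SE 0.12, edgeR, adjusted p = 0.837). No Ab42 heart exceeded the ScrAb42 median of Pprc1, and 3 lay below every ScrAb42 heart.

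Med1 was the regulator whose groups were most separated. Med1 encodes the Mediator subunit that contacts nuclear receptors and PGC-1α, and so links them to RNA polymerase II. Its levels in Ab42 hearts were 42.0, 46.5, 51.0, 52.6, 53.2, 53.9 and 54.3 CPM, and in ScrAb42 hearts 54.1, 56.3, 57.1, 57.9, 59.6, 62.5 and 62.6 CPM. All 7 Ab42 hearts were below the ScrAb42 median, and the groups overlapped in 1 Ab42 and 1 ScrAb42 heart. Of all genes tested, 0.0918% had groups that did not overlap, and Med1 was not among them. The ratio of the group means was 0.862, and the log2 fold change was -0.22 (SE 0.06, edgeR, unadjusted p = 0.00437, adjusted p = 0.641). By unadjusted p, Med1 ranked 76th of 11985 genes. Over all 23 alternative settings the estimate lay between -0.23 and -0.16 and the adjusted p between 0.224 and 0.900, the weakest estimate being the one with the atrial marker covariate (unadjusted p = 0.0463). The lowest Med1 level, 42.0 CPM, was in heart Abeta42_3457, which stood apart by its markers. Without that heart and heart ScrAbeta42_3448 the estimate for Med1 was -0.18 (unadjusted p = 0.00916, adjusted p = 0.423). The annotation places the gene Gm11604 across Med1 on the opposite strand, and whether the counting used strand is not given in the sources used here.

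None of the receptors and nuclear factors had an unadjusted p under 0.05, and the estimates of Esrra and Esrrg were larger than their standard errors. Esrra, a main docking partner of PGC-1α, ranged from 116 to 161 CPM with Ab42 and from 131 to 212 CPM with ScrAb42, with a log2 fold change of -0.13 (SE 0.11, edgeR, adjusted p = 0.865). Without heart ScrAbeta42_3449, which held the highest Esrra, it was -0.045 (unadjusted p = 0.613), and with the atrial marker covariate it was -0.066. Esrrg, the related receptor enriched in oxidative muscle, ranged from 35.5 to 58.5 CPM with Ab42 and from 38.1 to 54.1 CPM with ScrAb42. Its estimate was positive at 0.13 (SE 0.10, edgeR, adjusted p = 0.861), with 6 of 7 Ab42 hearts above the ScrAb42 median and heart Abeta42_3457 at the lowest value. Without heart Abeta42_3457 the Esrrg estimate was 0.20 (edgeR, unadjusted p = 0.0264), and without heart Abeta42_3451 it was 0.089 (unadjusted p = 0.399). Nrf1 differed by -0.03 (SE 0.10) on the log2 scale. Gabpa, the DNA-binding subunit of GABP, also called nuclear respiratory factor 2, differed by -0.04 (SE 0.08), and Gabpa and the ATP synthase gene Atp5j overlap on opposite strands.

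Downstream of these factors, the Tfam values of both groups overlapped. In Ab42 hearts Tfam ranged from 27.7 to 40.0 CPM with a median of 39.2, and in ScrAb42 hearts from 32.4 to 46.3 CPM with a median of 35.5. The lowest value was again in heart Abeta42_3457, and the other 6 Ab42 hearts lay between the lowest and highest ScrAb42 hearts. Its log2 fold change was 0.03 (SE 0.10, edgeR, adjusted p = 0.969), and leaving out 1 heart moved it between 0.0032 (without heart ScrAbeta42_3448) and 0.097 (without heart ScrAbeta42_3449). Perm1 ranged from 209 to 506 CPM with Ab42 and from 278 to 553 CPM with ScrAb42, a difference of -0.17 (SE 0.18, edgeR, adjusted p = 0.902). Its lowest level in each group was in the 2 hearts with the lowest mitochondrial shares, Abeta42_3457 and ScrAbeta42_3448. Without heart Abeta42_3457 it was -0.07 and without heart ScrAbeta42_3448 it was -0.26. With the atrial marker covariate the Perm1 estimate was 0.08, opposite in sign.

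The antibody study asked whether neutralising Ab42 bears on the heart. None of the 10 regulators passed the adjusted threshold (edgeR quasi-likelihood test with Benjamini-Hochberg adjustment over 12274 genes), and no gene did (0% called, and 0% with groups that did not overlap). At an unadjusted p under 0.05, 0 of the 10 regulators were called against 447 of 12274 genes (3.64%), and DESeq2 and limma-voom called 450 and 438 genes at that level and none after adjustment. Estimates were above 0 for 8 of the 10 regulators, with a median log2 fold change of 0.11 beside -0.01 over all genes tested. With the mitochondrial share as a covariate, the estimates of Esrrg, Med1, Perm1 and Pprc1 were below 0 and that of Esrra above 0.

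**Figure D2:**
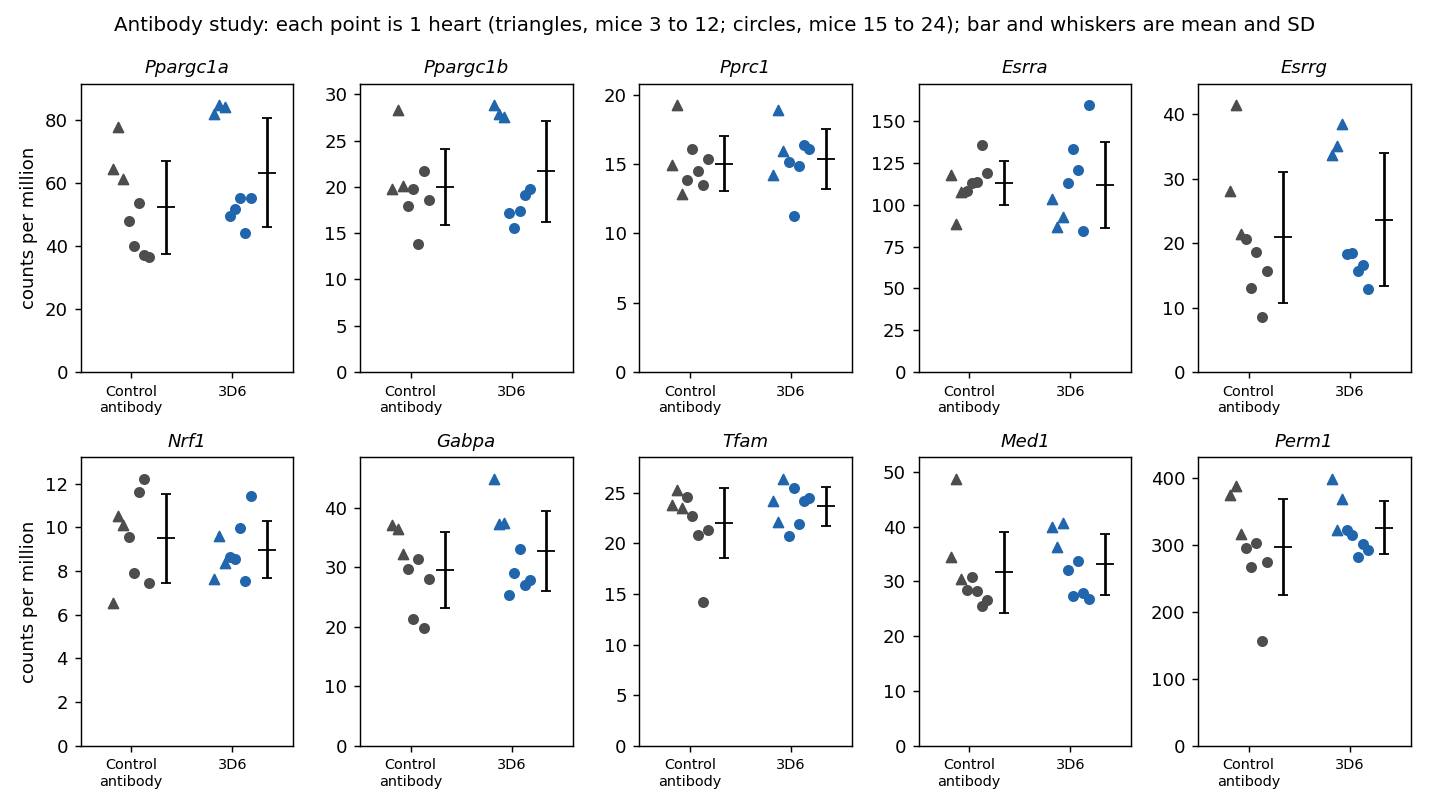
CPM of the 10 regulators in each heart of the antibody study, with the mean and SD of each group and with triangles for mice 3 to 12. Ppargc1a and Esrrg were higher in every heart of mice 3 to 12 than in any heart of mice 15 to 24, as were 4.21% of all genes tested. These sets were defined after the values were seen.

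Ppargc1a showed the largest positive estimate. In 3D6 hearts it stood at 44.0, 49.6, 51.7, 55.1, 55.2, 82.0, 84.1 and 84.8 CPM, and in control antibody hearts at 36.5, 37.1, 40.0, 47.9, 53.6, 61.3, 64.5 and 77.9 CPM. The 3 highest hearts of each group were those of mice 3 to 12, and 3 of 8 3D6 hearts exceeded every control heart. The log2 fold change was 0.28 (SE 0.18, edgeR, unadjusted p = 0.139, adjusted p = 0.946). Within mice 3 to 12, the 3D6 hearts (82.0 to 84.8 CPM) lay above the control hearts (61.3 to 77.9 CPM), as in 7.6% of 12147 genes, with an estimate of 0.30 (unadjusted p = 0.0195, adjusted p = 0.507) where 9.13% of genes had an unadjusted p under 0.05. Within mice 15 to 24 the groups overlapped, at 44.0 to 55.2 CPM with 3D6 and 36.5 to 53.6 CPM with the control antibody, and the estimate was 0.25 (unadjusted p = 0.0558, adjusted p = 0.828). With the mouse number set as a covariate, a setting added after the values were seen, the estimate was 0.27 (unadjusted p = 0.00465, adjusted p = 0.662), where 7.31% of all genes had an unadjusted p under 0.05. With the mitochondrial share as a covariate it was 0.09 (unadjusted p = 0.418). The mitochondrial share itself had a median of 33.2% in 3D6 hearts and 31.2% in control antibody hearts.

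The other coactivators differed less. Ppargc1b ranged from 15.6 to 28.8 CPM with 3D6 and from 13.8 to 28.3 CPM with the control antibody, a log2 fold change of 0.11 (SE 0.15, edgeR, adjusted p = 0.946). Its estimate was 0.31 within mice 3 to 12 and -0.05 within mice 15 to 24, and this difference between the sets was not tested. Pprc1 ranged from 11.2 to 18.9 CPM with 3D6 and from 12.8 to 19.3 CPM with the control antibody, at 0.03 (SE 0.10). Med1, the lowest-p regulator of the peptide study, overlapped fully here, at 26.8 to 40.7 CPM with 3D6 and 25.4 to 48.7 CPM with the control antibody, and its estimate was 0.07 (SE 0.13, edgeR, adjusted p = 0.950).

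Among the receptors, Esrrg varied most between hearts. It stood at 12.9, 15.7, 16.7, 18.3, 18.4, 33.6, 35.1 and 38.5 CPM in 3D6 hearts and at 8.53, 13.1, 15.6, 18.6, 20.6, 21.5, 28.1 and 41.4 CPM in control antibody hearts. The high values were those of mice 3 to 12 in both groups, and the mean of these 6 hearts was 2.09 times that of the other 10. Its treatment estimate was 0.18 (SE 0.29, edgeR, adjusted p = 0.946), and leaving out 1 heart moved it between 0.047 (without 3D6 mouse 12) and 0.40 (without control mouse 8). Esrra ran the other way between the sets, at 0.828 times, and its treatment estimate was -0.01 (SE 0.12). The overlapping ranges of Esrra were 84.6 to 160 CPM with 3D6 and 88.7 to 135 CPM with the control antibody.

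The nuclear factors, Tfam and Perm1 overlapped between antibody groups. Gabpa ranged from 25.4 to 44.9 CPM with 3D6 and from 19.8 to 37.2 CPM with the control antibody, with an estimate of 0.15 (SE 0.14, edgeR, adjusted p = 0.946). Nrf1 was the only DNA-binding regulator besides Esrra with a negative estimate, -0.08 (SE 0.13). Tfam was at 20.7 to 26.4 CPM with 3D6 and 14.2 to 25.2 CPM with the control antibody, an estimate of 0.10 (SE 0.10), and the lowest value, in control mouse 22, stood apart from the other 7. Perm1 ranged from 282 to 399 CPM with 3D6 and from 156 to 389 CPM with the control antibody, and mouse 22 was again lowest. Its estimate was 0.13 (SE 0.14, edgeR, adjusted p = 0.946). Without mouse 22 the estimates were 0.038 for Tfam and 0.045 for Perm1.

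The mouse number sets were defined after the values were seen, and no test compared them. Ppargc1a and Esrrg did not overlap between the sets, as was so for 5.98% of all 12274 genes, and 4.21% were higher in every heart of mice 3 to 12. The mean of mice 3 to 12 over that of mice 15 to 24 was 1.61 for Ppargc1a, 1.41 for Ppargc1b, 1.38 for Gabpa, 1.34 for Med1 and 1.29 for Perm1. Tfam (1.10), Pprc1 (1.09) and Nrf1 (0.927) differed least. The 6 cardiomyocyte markers did not move together. Ryr2, the calcium release channel, ranged from 1077 to 1648 CPM in mice 3 to 12 and from 566 to 1181 CPM in mice 15 to 24. Medians ran the other way for the contractile genes Tnni3 (2615 against 3657 CPM), Tnnt2 (4407 against 5511) and Myl2 (3259 against 5300), and were close for Myh6 (26202 against 25566) and Actc1 (6708 against 6503). The summed markers had medians of 44704.8 and 47118.3 CPM. Summed blood markers had medians of 878 CPM in mice 3 to 12 and 1643 CPM in mice 15 to 24, with overlap. Summed macrophage markers ran from 80.8 to 111 CPM in mice 3 to 12 and from 115 to 160 CPM in mice 15 to 24. The part of these measures in the differences between sets was not tested.

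**Figure D3:**
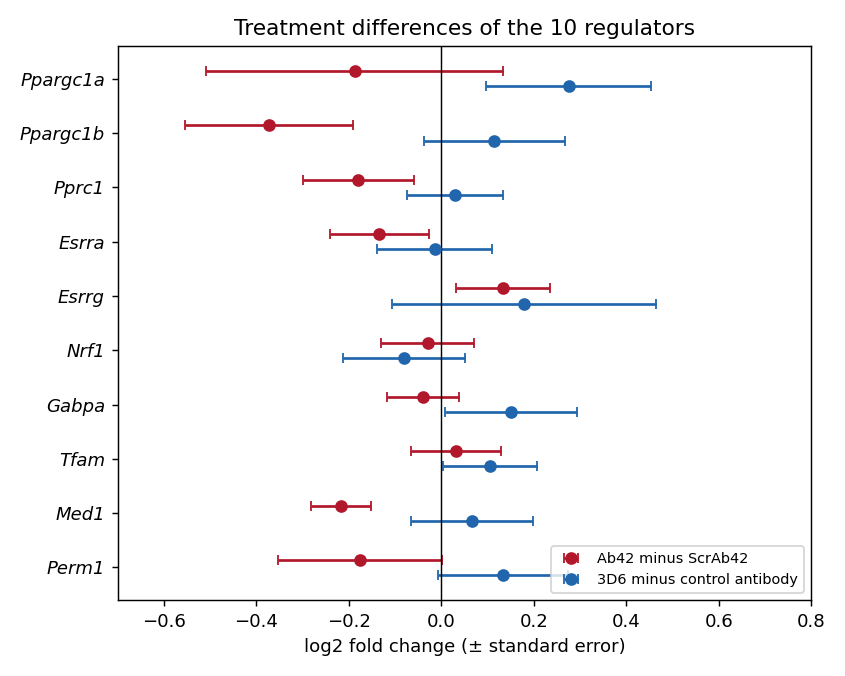
Log2 fold change with its standard error for each of the 10 regulators in both comparisons. Med1 in the peptide study, at -0.22, lies farthest from 0 relative to its standard error, and no estimate passed the adjusted threshold.

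The antibody table held Ppargc1a by transcript, as estimated counts. Ppargc1a lies on chromosome 5 at 51454250 to 51567726 of GRCm38, minus strand, and 5 transcripts are annotated. Transcripts Ppargc1a-201, Ppargc1a-203 and Ppargc1a-205 begin near position 51553922, and Ppargc1a-202 and Ppargc1a-204 begin at a start site 13804 bases upstream, where the printed window lies. Ppargc1a-203, protein coding with 13 exons and 6464 bases, held 92.7% of the gene's estimated counts on average and was present in all 16 hearts. Its share was 90.4% with 3D6 and 95.04% with the control antibody, a difference of -4.65 percentage points (exact two-sided permutation test over 8 and 8 hearts, p = 0.327). On the CPM scale Ppargc1a-203 ranged from 43.8 to 67.2 with 3D6 and from 35.7 to 66.4 with the control antibody, a log2 fold change of 0.17 (SE 0.14, edgeR over 20857 transcripts, adjusted p = 0.9999), and 0% of those transcripts passed the adjusted threshold.

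The minor transcripts appeared in few hearts. Ppargc1a-201, annotated as a target of nonsense-mediated decay, had 119 estimated counts in 3D6 mouse 7, 89.3 in 3D6 mouse 4 and 80.7 in control mouse 8, between 6.60 and 23.2 in 4 other hearts and 0 in the remaining 9. Ppargc1a-205 had counts in 3 hearts (79.6, 44.1 and 19.2), all from mice 3 to 12. Ppargc1a-203 held 74.1% to 95.4% of the estimated counts in mice 3 to 12 and at least 91.5% in mice 15 to 24. From the upstream start, Ppargc1a-204 had 80.5 estimated counts in 3D6 mouse 12 and 30.4 in control mouse 15, 4.82 to 11.7 in 3 other hearts and 0 in 11. Ppargc1a-202 was at 0 in all 16 hearts, where 261 to 692 counts per gene leave shares of up to 0.434% to 1.15% undetected (a floor of 3 counts, counting error only). Salmon shares reads among overlapping transcripts by a model, so small estimates of one transcript depend on the others.

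Genes that work with the 10 regulators were described from 5 lists, chosen with earlier results of these data known, and partly from genes the study had singled out on these hearts. No gene of the 5 lists passed the adjusted threshold in either study. Of all genes tested, 49.5% were below 0 with Ab42 and 47.4% above 0 with 3D6. An unadjusted p under 0.05 (edgeR) was found for 6.51% of all genes with Ab42 and 3.64% with 3D6. The list of partners and brakes, nuclear receptors, coactivators and corepressors that share targets with PGC-1, had 6 of 22 genes above 0 and 16 below with Ab42 (median log2 fold change -0.07), and 2 had an unadjusted p under 0.05, of which 1 is described here. Ncoa3, a steroid receptor coactivator, was at 68.2 to 83.1 CPM with Ab42 and 81.4 to 103 CPM with ScrAb42, an estimate of -0.19 (SE 0.07, edgeR, unadjusted p = 0.00957, adjusted p = 0.683). In the antibody study 16 of the 22 were above 0 with a median of 0.08, and none had an unadjusted p under 0.05.

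Target genes of PGC-1 and the receptors, which encode enzymes of fatty acid oxidation, the citric acid cycle and respiration, were 24 of 26 below 0 with Ab42, at a median of -0.05 and with no unadjusted p under 0.05. Examples are Cpt1b (-0.16, SE 0.13), which admits fatty acids into mitochondria, and Cs (-0.07, SE 0.12), citrate synthase. Cpt1b was low in the peptide study, at 20.5 to 33.0 CPM with Ab42 and 22.5 to 38.4 CPM with ScrAb42. In the separately processed antibody study it stood at 580 to 660 CPM with 3D6 and 545 to 660 CPM with the control antibody. The reason for this gap was not tested, which limits the peptide estimate of Cpt1b. Group medians ran both ways among genes with estimates below 0. With Ab42 against ScrAb42, medians were higher for Mb (10476 against 9531 CPM) and Hadha (2089 against 2049). The median was lower for Cs (1611 against 1676). The minima of Mb, Hadha and Cs were 4402, 1078 and 1111 CPM with Ab42, and 6959, 1610 and 1205 CPM with ScrAb42. The part of single hearts in these signs was not tested. With 3D6, 15 of the 26 were above 0 at a median of 0.04. The largest of them were Pdk4, the kinase that restrains pyruvate dehydrogenase (0.52, SE 0.30, unadjusted p = 0.100), and the uncoupling protein Ucp3 (0.40, SE 0.19, unadjusted p = 0.0513), both named after their values were seen. The genes of mitochondrial DNA replication and transcription were 10 of 13 below 0 with Ab42 (median -0.09) and 12 of 14 above 0 with 3D6 (median 0.07), with no unadjusted p under 0.05 in either.

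**Figure D4:**
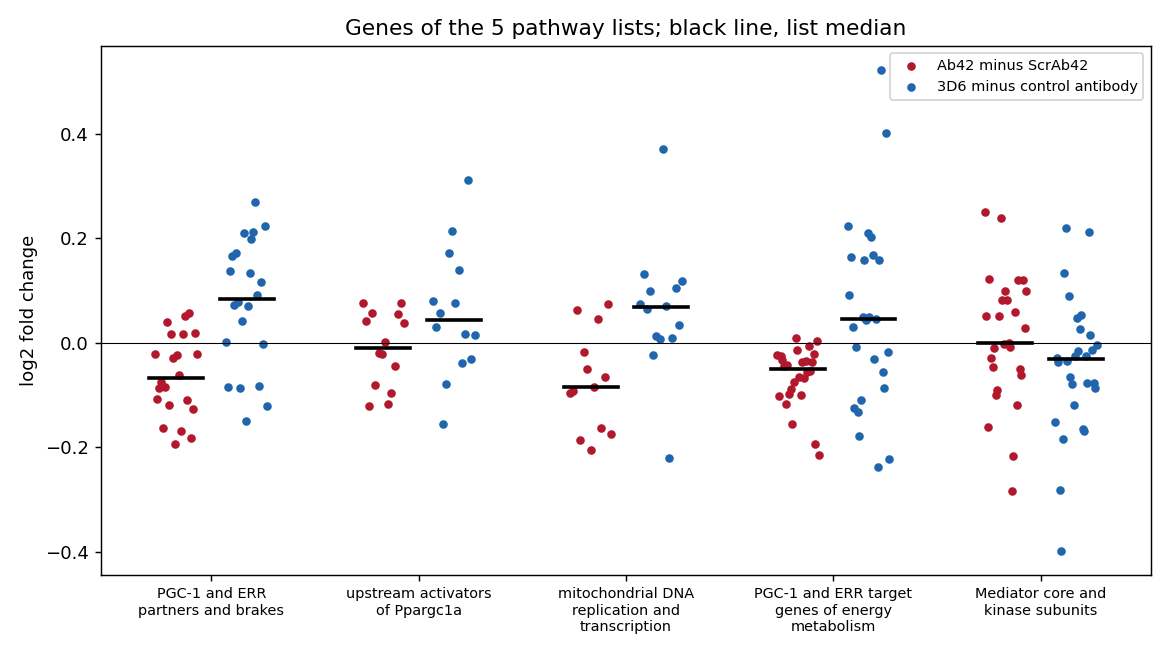
Log2 fold change of each tested gene of 5 lists in the peptide and the antibody study, with list medians as black lines. Medians lie between -0.09 and 0.08, and no gene passed the adjusted threshold.

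Upstream activators of Ppargc1a, kinases and transcription factors such as AMPK, p38 and MEF2, were 7 of 14 above 0 with Ab42 (median -0.01) and 10 of 14 above 0 with 3D6 (median 0.04). None had an unadjusted p under 0.05. Prkaa2, the catalytic subunit of AMPK that prevails in muscle, stood at 0.06 (SE 0.08) with Ab42 and 0.31 (SE 0.29) with 3D6. Among the other Mediator subunits, 13 of 27 were above 0 with Ab42, at a median of 0.00. None of the 27 had an unadjusted p under 0.05 with a negative estimate, and the lowest estimates were -0.28 for Med26 (SE 0.13, edgeR, unadjusted p = 0.0512) and -0.22 for Med27 (SE 0.15, unadjusted p = 0.161), beside -0.22 for Med1. Med19 had an estimate of 0.24 (SE 0.11, edgeR, unadjusted p = 0.0421, adjusted p = 0.748), at 8.27 to 11.6 CPM with Ab42 and 6.56 to 9.29 CPM with ScrAb42. With 3D6, 8 of 28 were above 0 (median -0.03), and Med11 had an estimate of -0.40 (SE 0.17, edgeR, unadjusted p = 0.0300, adjusted p = 0.946) at 2.31 to 3.72 CPM against 2.49 to 5.40 CPM.

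Whether the other 9 regulators varied with Ppargc1a from heart to heart was examined on log2 CPM after group means were subtracted, in 27 relations. In the antibody study the hearts fell into 2 sets, so no value over all 16 is given for these relations. None of the 27 relations had an adjusted p under 0.05 by permutation. These p-values are approximate, since values from which a group mean was subtracted are not independent of each other. For the 6 hearts of mice 3 to 12, all orders were used, across both groups. Over the 14 peptide hearts, Pearson's r ran from -0.21 for Esrra to 0.38 for Gabpa, and Spearman's rho from 0.16 for Esrra to 0.51 for Esrrg (permutation test, p = 0.0662, adjusted p = 0.310). Without hearts ScrAbeta42_3445 and ScrAbeta42_3449, r was 0.73 for Esrra, 0.71 for Ppargc1b, 0.69 for Perm1 and 0.52 for Nrf1, whereas it was 0.30 for Esrrg and 0.31 for Med1, close to 0.31 and 0.33 with them. Within mice 15 to 24 (10 hearts), Gabpa had r = 0.67 and rho = 0.60 (permutation p = 0.0372 and 0.0708, adjusted p = 0.161 and 0.310), and r was 0.79 without the 2 most extreme hearts. Ppargc1b had r = -0.69 and rho = -0.47 in the same hearts (permutation p = 0.0246 and 0.178, adjusted p = 0.133 and 0.422) and r = -0.49 without the 2 extremes. Within mice 3 to 12 (6 hearts), Esrrg had r = 0.96 and rho = 0.89 (permutation p = 0.00694 and 0.0333, adjusted p = 0.103 and 0.310), and r was 0.55 without the 2 most extreme hearts. Ppargc1b, by contrast with mice 15 to 24, had r = 0.94 and rho = 0.77 in these 6 hearts (permutation p = 0.0153 and 0.103, adjusted p = 0.103 and 0.313), and r was 0.68 without the 2 most extreme. In the same hearts Med1 had r = 0.94 (permutation p = 0.0125, adjusted p = 0.103) and 0.25 without the 2 most extreme, and Pprc1 had r = 0.87 and the highest rho, 0.94 (permutation p = 0.0111 and 0.0167, adjusted p = 0.103 and 0.310). Esrra ran the other way, with r = -0.80 and rho = -0.83 (permutation p = 0.0417 and 0.0583, adjusted p = 0.161 and 0.310), and r = -0.95 without the 2 most extreme. The 2 most extreme hearts of mice 3 to 12 were those of control mice 8 and 11. Without them, r rests on control mouse 3 and 3 3D6 hearts, whose Ppargc1a spanned only 82.0 to 84.8 CPM. Such values of r say little about how stable a relation is.

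Among genes outside the 10, those most like Ppargc1a were taken as the 5 with the highest lower value of Pearson's r in the 14 peptide and 16 antibody hearts. They were Gpr157 (0.80 over the peptide hearts), Jmy (0.79), Lgr4 (0.78), Rnf144b (0.74) and Nup153 (0.74). The values describe the hearts, share libraries with Ppargc1a and carry no p, and the choice of genes includes the split between mouse numbers in the antibody study. Within mice 15 to 24 r was 0.62, 0.51, 0.40, 0.70 and 0.29 in the same order, and within mice 3 to 12 it was 0.92, 0.15, 0.92, 0.84 and 0.94. Without heart ScrAbeta42_3445, r in the peptide study was 0.87 for Gpr157 and 0.43 for Nup153. Gpr157 ranged from 40.1 to 95.4 CPM over the peptide hearts and stood at 91.2 CPM in heart ScrAbeta42_3445, the heart with the highest Ppargc1a.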

How the data were processed

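RNA from the left ventricle of 30 mice was sequenced with a stranded total RNA kit. Per the labels and the methods of the study, the authors trimmed reads and mapped them with Salmon to the mouse transcriptome of GRCm38 (GENCODE). Values of the peptide study are raw gene counts as deposited, whole numbers under Ensembl identifiers, and how transcripts were summed is not given in the sources used here. Those of the antibody study are Salmon's estimated counts as deposited, 1 row a transcript, likewise raw. In the peptide table, 1 column matched no labelled mouse and was not used. Samples were grouped by their labels. No 2 hearts of a group agreed within sampling noise.

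Transcripts were summed to genes through GENCODE vM21 of GRCm38 and rounded, and unlisted transcripts, with 0.381% of the estimated counts, kept rows of their own. Gene symbols came from the same annotation. The 2 tables were fitted apart (edgeR 4.0.16, R 4.3.3) after removing genes that averaged under 10 counts a heart. Library sizes were scaled by TMM, and the two-sided quasi-likelihood test compared groups, with Benjamini-Hochberg adjustment over all genes tested and a threshold of 0.05. Ppargc1a transcripts were tested in a fit of all transcripts. Log2 CPM used a prior count of 2, and correlations used 100000 permutations (all permutations for 6 hearts). The procedure was tested on simulated data. Alternatives were DESeq2 1.42.0, limma-voom (limma 3.58.1), other scaling and filters, covariates for the mean log2 CPM of the atrial markers and the mitochondrial share, protein-coding transcripts only, and leaving out each heart. The mouse number sets, a block of adjacent mouse numbers, and a fit without hearts Abeta42_3457 and ScrAbeta42_3448, were added after the data were seen. Correlations within these sets replaced the planned one over all 16 antibody hearts.

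The 10 genes and all lists were chosen with earlier results of these data known. Named genes were all 10 regulators, list genes with an unadjusted p under 0.05, the 5 genes most like Ppargc1a, markers, and Ppargc1a transcripts, and others are named as examples. A list gene that the rule names is not reported here. Where nothing says that mice came from separate cages or days, p-values measure the spread between these hearts. Overlapping genes (Atp5j with Gabpa, Ldb1 with Pprc1, Trmt112 with Esrra, Gm11604 with Med1) may share reads if counting ignored strand. Promoter sequences are from RefSeq on GRCm38.p6.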

Additional observations from a re-analysis of the deposited data

Results flagged for a closer look

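Each regulator was checked in each group for a heart far from the others (Dixon's test of the gap to the nearest heart, 95% critical value), 40 checks in all, of which chance gives about 2. It picked out 5. Ppargc1a in heart ScrAbeta42_3445 stood at 611 CPM, above the other 6 hearts at 111 to 281 CPM. Esrra in heart ScrAbeta42_3449 stood at 212 CPM, the highest of its group, and this heart had the lowest Ppargc1a of the group. Tfam in heart Abeta42_3457, the heart with the highest Ucp1 and summed atrial markers, was the lowest of its group at 27.7 CPM. Tfam in control antibody mouse 22 was the lowest of its group at 14.2 CPM, and the mitochondrial share of that heart, 25.9%, was also the lowest in the antibody study. Med1 in control antibody mouse 8 was the highest of its group at 48.7 CPM.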

How the results depend on the processing

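No regulator passed the adjusted threshold under any alternative, over 230 values in the peptide and 290 in the antibody study, and the lowest adjusted p were 0.224 and 0.507. Signs turned in 9 and 15 of them. In the peptide study Ppargc1a was 0.023 by limma-voom and 0.063 with the atrial covariate, under which Gabpa was 0.015 and Perm1 0.075, and leaving out 1 heart gave -0.31 to 0.26 for Ppargc1a (0.26 without heart ScrAbeta42_3445) and -0.070 to 0.017 for Nrf1. The other 6 regulators kept their sign under all 23 alternatives. In the antibody study, with the mitochondrial share as a covariate, Pprc1 was -0.0084, Esrra 0.065, Esrrg -0.11, Med1 -0.056 and Perm1 -0.014. Scaling by total count alone gave -0.0072 for Pprc1, the atrial covariate 0.012 for Esrra, and mice 15 to 24 alone -0.053 for Ppargc1b and 0.047 for Esrra. Leaving out 1 heart gave -0.016 to 0.089 for Pprc1 and -0.11 to 0.035 for Esrra, and without control mouse 8 Ppargc1a was 0.38 (unadjusted p = 0.0387). Leaving out 1 heart also gave -0.22 to -0.10 for Pprc1 and -0.077 to -0.0037 for Gabpa in the peptide study, and 0.047 to 0.20 for Ppargc1b, 0.074 to 0.21 for Gabpa, 0.022 to 0.18 for Med1 and -0.14 to -0.015 for Nrf1 in the antibody study. The causes were not tested.

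For the peptide study, genes past the adjusted threshold were 12 by DESeq2 and 0 to 3 with 1 heart left out (3 without heart Abeta42_3452). Genes with an unadjusted p under 0.05 were 1475 without the low-count filter, 1253 with the mitochondrial covariate and 608 to 1267 with 1 heart left out, the highest without heart ScrAbeta42_3448. Regulators at that level were 2 without the filter and with the mitochondrial covariate (Med1 and Ppargc1b), 3 without hearts Abeta42_3457 and ScrAbeta42_3448 (Esrrg too, where 942 of 11781 genes had such a p), and 1 to 2 with 1 heart left out. For the antibody study, 1 gene passed the adjusted threshold within mice 3 to 12. Genes with an unadjusted p under 0.05 were 1213 without the filter, 897 with the mouse number set, 1109 within mice 3 to 12, and 256 (without 3D6 mouse 4) to 771 (without control mouse 8) with 1 heart left out. Regulators at that level were 1, Ppargc1a, with the mouse number set and within mice 3 to 12, and 0 to 1 with 1 heart left out. Scaled by total count, r with Ppargc1a was 0.0035 for Nrf1 and -0.25 for Tfam over the peptide hearts, and -0.41 for Gabpa in mice 3 to 12. With longest transcripts in place of exon unions, levels per kilobase were the same or higher, and the order changed as given above.

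The groups compared share no mouse number, and the labels do not say that neighbouring numbers are pairs. The antibody mice do fall into 8 pairs of adjacent numbers with 1 heart of each group. With these as a replicate block, a setting added after the values were seen, Ppargc1a was 0.28 (edgeR, unadjusted p = 0.00304, adjusted p = 0.637), it was higher with 3D6 in 8 of 8 pairs (as were 0.595% of all genes), and 945 genes, with 1 regulator, had an unadjusted p under 0.05 and 0 an adjusted one. Deviations of paired hearts from their group means correlated at -0.21 to 0.41 across genes, and from group means within each mouse number set at -0.071 to 0.24. Hearts outside these pairs were not compared in this way, so the correlations cannot show whether mice were matched. The adjacent numbers were not taken as pairs because the labels do not name them so. The planned correlation over all 16 antibody hearts is not given, since the hearts form 2 sets.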
